A study of Mus musculus with 9 samples.

Results

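The genes described here are 10 genes of the unfolded protein response of the endoplasmic reticulum (ER): Hspa5, Hsp90b1, Herpud1, Xbp1, Sdf2l1, Creld2, Pdia4, Calr, Hyou1 and Manf. All probe sets annotated to 1 of these symbols were taken, which gave 22 of 45037 probe sets and 10 of 18193 genes on the array. They were read in neurospheres of adult olfactory bulb stem cells (aOBSCs) of the mouse, that is, floating clusters of neural stem and progenitor cells, grown in serum-free medium with FGF-2/EGF as mitogens. The 3 conditions received the same factors at intervals of 1 day (Ctr), 2 days (C2) and 4 days (C4), without a change of medium. The paper states that aOBSCs had been without added factors for 1 day in C2 and for 3 days in C4 when collected. The interval and the time since the last addition therefore cannot be told apart. RNA of each was read on 3 Affymetrix mouse genome arrays. The cells came from adult CD1 or C57Bl/6 mice of more than 1 age. The design text calls the 3 arrays of a condition biological replicates, but nothing in the sources used here says whether they came from separate mice or cultures, so the p-values may rest on technical spread alone. Values are log2 expression values (GCRMA), so a difference of 1 is 2-fold, and each probe set is set only against itself in the other conditions.

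Proteins that enter the ER are folded there by chaperones, and when unfolded proteins pile up, the sensors IRE1 (Ern1), PERK (Eif2ak3) and ATF6 switch on a program of genes for chaperones, oxidoreductases and degradation of misfolded proteins. PERK also phosphorylates the translation factor eIF2alpha, and so does the kinase GCN2 (Eif2ak4) when amino acids are short. Phosphorylated eIF2alpha favors translation of the transcription factor ATF4, whose targets serve amino acid synthesis and transport and the charging of tRNAs. Genes of the ER folding program and genes of amino acid supply therefore allow the ER arm and the ATF4 arm of these stress responses to be read side by side.

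Promoter motifs named for each of these arms are shown first. RefSeq promoter windows (GRCm38.p6, from 250 bases before to 50 bases after the start of transcription) were matched for 8 of the 10 genes (all but Hyou1 and Manf). Each was searched on both strands for the ER stress element ERSE (CCAAT and CCACG with 9 free bases between them), for ERSE-II (ATTGG and CCACG with 1 free base between them), for the UPR element UPRE (TGACGTGG) and for the C/EBP-ATF response element CARE (TGATGNAA), a motif that ATF4 binds together with C/EBP proteins. No 2 of the matches in these windows overlapped. The full windows of Hspa5, which encodes the central ER chaperone BiP, and of Herpud1 are printed 5′ to 3′ on the strand of the gene, with matches in capitals. The window of Hspa5 (chr2:34771840-34772139, plus strand) has 1 ERSE.
Hspa5: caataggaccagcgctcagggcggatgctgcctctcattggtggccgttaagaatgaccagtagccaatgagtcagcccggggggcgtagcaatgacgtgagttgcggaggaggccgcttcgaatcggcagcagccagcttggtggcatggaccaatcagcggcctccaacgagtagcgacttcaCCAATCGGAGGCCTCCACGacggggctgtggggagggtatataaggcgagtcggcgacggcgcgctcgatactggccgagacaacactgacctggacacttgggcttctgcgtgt
The window of Herpud1 (chr8:94386179-94386478, plus strand) has a CARE, 112 to 105 bases before the start and read on the opposite strand, and after it an ERSE-II, 52 to 42 bases before the start.
Herpud1: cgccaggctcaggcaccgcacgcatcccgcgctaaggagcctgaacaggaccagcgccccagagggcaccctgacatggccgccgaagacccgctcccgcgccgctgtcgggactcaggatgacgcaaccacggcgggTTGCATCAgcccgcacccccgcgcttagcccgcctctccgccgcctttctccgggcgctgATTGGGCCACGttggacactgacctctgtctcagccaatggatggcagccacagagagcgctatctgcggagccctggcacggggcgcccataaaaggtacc

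ERSE was found in 4 of the 8 windows, in Hspa5, Calr, Creld2 and, at 2 places, Hsp90b1, against 0.137% of 27025 genes with a RefSeq promoter window. The matches of the other 3 genes, each with 8 bases on either side, are on chr8:84847067-84847101 (Calr, minus strand), chr15:88819512-88819546 (Creld2, plus strand), chr10:86705630-86705664 and chr10:86705525-86705559 (Hsp90b1, minus strand).
Calr: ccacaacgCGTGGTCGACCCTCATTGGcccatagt
Creld2: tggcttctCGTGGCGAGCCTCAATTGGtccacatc
Hsp90b1, distal: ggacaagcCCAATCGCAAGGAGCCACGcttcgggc
Hsp90b1, proximal: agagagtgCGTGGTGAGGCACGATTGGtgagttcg
ERSE-II was found in Herpud1 alone of the 8, against 0.0444% of genes, and UPRE in 0 of 8, against 0.714% of genes. CARE was likewise found in Herpud1 alone of the 8, against 4.51% of genes. In a list of 45 genes of the integrated stress response and amino acid supply, 37 had a promoter window; 13 of the 37 (35.1%) held CARE and 0 held ERSE, ERSE-II or UPRE. To set beside the CARE of Herpud1, those of Chac1 (chr2:119351041-119351064, plus strand), Nupr1 (chr7:126625565-126625588, minus strand) and Asns (chr6:7693217-7693240, minus strand) are shown, and the match of Chac1 and Nupr1 has the same 8 letters as that of Herpud1.
Herpud1: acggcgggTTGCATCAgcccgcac
Chac1: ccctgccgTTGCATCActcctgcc
Nupr1: gggccagaTTGCATCAgacagggc
Asns: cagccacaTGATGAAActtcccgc
A match says that the letters are present in the window, and binding was not measured. These motifs are named elements of the programs for which the genes were listed. The shares beside all genes are therefore a description and not an independent test.

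In C4 neurospheres, by the brightest probe set of each of the 10 genes, Manf was higher and Herpud1 was lower than in Ctr neurospheres, and the other 8 did not pass the test. The differences of the 10 genes ran from −0.36 (Herpud1) to 0.37 (Calr), with a median of 0.13, and none reached 2-fold. In C2 neurospheres, Xbp1 was lower than in Ctr neurospheres and the other 9 genes did not pass the test; the differences ran from −0.28 to 0.19, with a median of −0.06. Between the C4 and C2 conditions, Xbp1, Calr and Manf were higher in C4 and Herpud1 was lower, with differences from −0.43 to 0.45 and a median of 0.25.

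A gene counted as called when its probe set of highest mean had an adjusted p under 0.05 in limma's moderated test over all 45037 probe sets. In C4 against Ctr, where 1 of the 10 genes was higher and 1 lower, 9.20% of all 18193 genes were called (5.65% higher and 3.55% lower). In C2 against Ctr, where 1 of the 10 was lower, 2.52% of all genes were called (1.67% higher and 0.846% lower). In C4 against C2, where 3 of the 10 were higher and 1 lower, 7.78% of all genes were called (4.29% higher and 3.49% lower). The members of the list were expressed more often than genes at large: 9 of 10 had a probe set with a mean of 4 or more, as did 9434 of the 18193 genes in C4 or Ctr. Among genes with such a mean, 17.5% were called in C4 against Ctr, 4.79% in C2 against Ctr and 14.8% in C4 against C2. By the arrays alone, 4 of the 10 genes (Creld2, Pdia4, Calr and Manf) had all C4 arrays above all Ctr arrays, against 13.8% of all genes, and 2 (Hsp90b1 and Herpud1) had all C4 arrays below, against 8.64%. In C2 against Ctr, 0 of 10 lay above, against 10.4% of all genes, and 3 (Hsp90b1, Xbp1 and Creld2) lay below, against 6.35%. In C4 against C2, 6 (Hspa5, Xbp1, Creld2, Pdia4, Calr and Manf) lay above, against 11.3%, and 3 (Hsp90b1, Herpud1 and Hyou1) lay below, against 9.53%. With a robust variance prior, 0 of the 10 genes passed in C4 against Ctr, 0 in C2 against Ctr and 1 (Herpud1) in C4 against C2. With that prior, 4.59%, 0.159% and 3.99% of all genes were called in these comparisons. The C4 and C2 comparisons share the Ctr arrays, so they are given side by side and not set against each other.

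**Figure D1:**
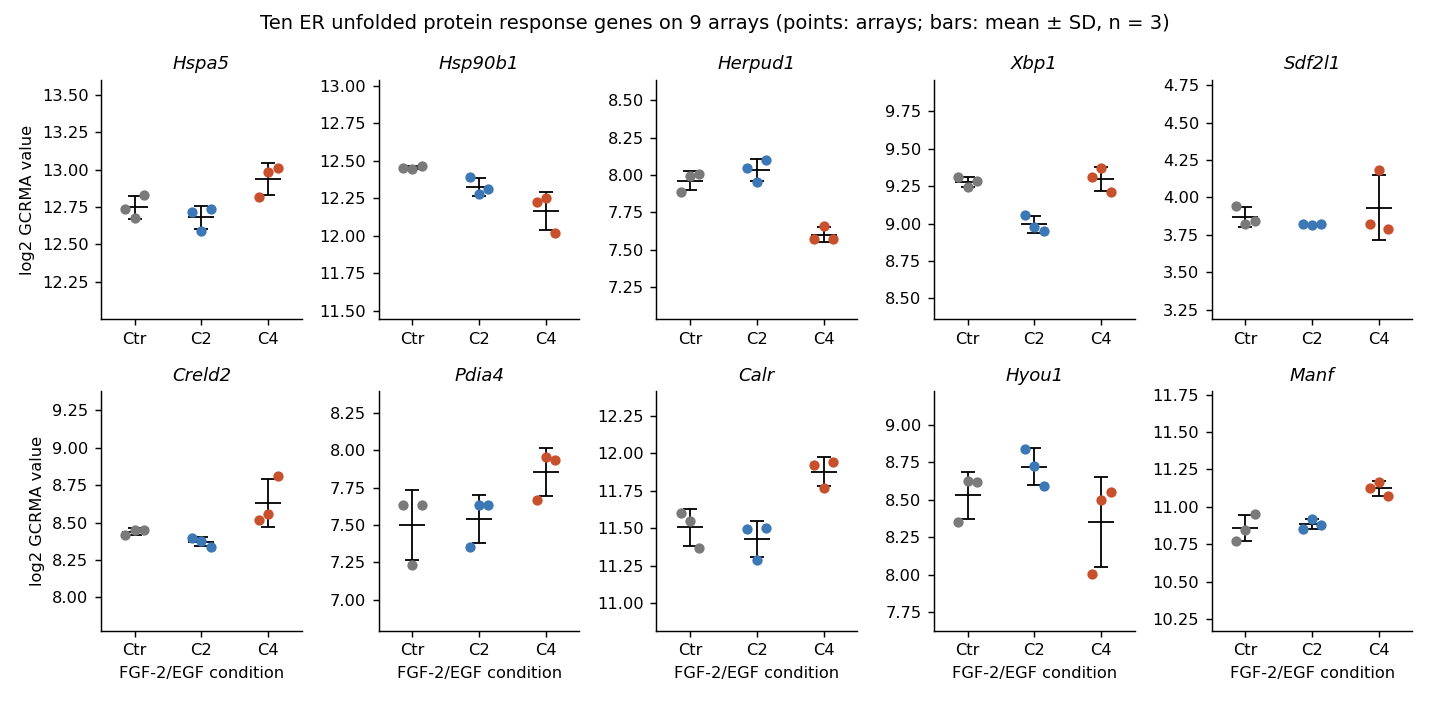
Log2 GCRMA values of the 10 genes (probe set of highest mean) on each array, by condition; points are arrays, horizontal bars the mean and whiskers the SD of 3 arrays, and every panel spans the same 1.6 log2 units. The C4 arrays of Herpud1 and Hsp90b1 lie below all others, and those of Calr, Manf, Creld2 and Pdia4 above all others.

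BiP and its partners come first. Hspa5 (chr2:34772090-34776529, GRCm38.p6), an HSP70 chaperone that also holds the UPR sensors inactive, had 12.81, 12.98 and 13.01 in C4 neurospheres and 12.73, 12.68 and 12.83 in Ctr neurospheres (log2 values of its probe set of highest mean). The lowest C4 array fell below the highest Ctr array, so the conditions overlapped. The difference of C4 from Ctr was 0.19 (95% interval 0.02 to 0.35, adjusted p = 0.243). In C2 neurospheres the values were 12.72, 12.59 and 12.73, which overlapped Ctr, with a difference of −0.07 (−0.23 to 0.10, adjusted p = 0.877). The C4 arrays were above all C2 arrays, by 0.25 (0.09 to 0.42), which did not pass the test (adjusted p = 0.118).

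The other probe sets of Hspa5 did not show the same differences. A second bright probe set (marked s in its ID, for a possible match to other transcripts) had 11.70, 11.55 and 11.59 in C2 neurospheres and 12.04, 12.08 and 11.99 in Ctr neurospheres, with no overlap. Its difference of −0.43 passed the test (adjusted p = 0.0206). In C4 neurospheres it had 11.91, 11.81 and 11.97, a difference of −0.14 from Ctr (adjusted p = 0.271), and 0.29 above C2 (adjusted p = 0.0342). So the 2 bright probe sets of Hspa5 had opposite signs in C4 against Ctr, and the dimmest, with condition means of 6.56 to 6.77, passed in none of the 3 comparisons.

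Hyou1 (chr9:44379490-44392369), the large HSP70-related protein GRP170 that exchanges nucleotide on BiP, had 8.01, 8.50 and 8.55 in C4 neurospheres and 8.35, 8.63 and 8.62 in Ctr neurospheres. The arrays overlapped, and C4 replicate 1 was the lowest of all 9. The difference of C4 from Ctr was −0.18 (−0.57 to 0.21, adjusted p = 0.704), and that of C2, with 8.84, 8.73 and 8.59, was 0.19 (−0.20 to 0.58, adjusted p = 0.757). Its other 2 probe sets were near the floor of the array, with means under 3 in every condition. Sdf2l1 (chr16:17130138-17132383), a cofactor of the BiP system, has 1 probe set, which was near the floor as well: 3.94, 3.82 and 3.84 in Ctr, 3.82 on each C2 array, and 3.82, 4.18 and 3.79 in C4 neurospheres. At this signal a difference in Sdf2l1 was not detectable, and its place among the 10 rests on a probe set close to background.

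Hsp90b1 (chr10:86690841-86705444), the ER member of the HSP90 family (GRP94), had 12.23, 12.25 and 12.02 in C4 neurospheres and 12.45, 12.45 and 12.47 in Ctr neurospheres. All C4 arrays were below all Ctr arrays, yet the difference of −0.29 (−0.45 to −0.14) just missed the threshold (adjusted p = 0.0510). The second probe set of Hsp90b1 had 12.18, 12.07 and 12.12 in C4 and 12.60, 12.55 and 12.40 in Ctr neurospheres, and its difference of −0.39 passed (adjusted p = 0.00866). C2 lay between Ctr and C4 on both probe sets: 12.39, 12.28 and 12.31 on the first (difference from Ctr −0.13, adjusted p = 0.638) and 12.26, 12.24 and 12.24 on the second (−0.27, adjusted p = 0.0805). Both probe sets of Hsp90b1 thus had the order Ctr, C2, C4 from high to low, and the neighbors C4 and C2 did not pass the test on either (adjusted p = 0.330 and 0.373).

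Calr (chr8:84842088-84846931), calreticulin, a lectin chaperone that binds glycoproteins and calcium, ran the other way. It had 11.92, 11.77 and 11.94 in C4 neurospheres and 11.60, 11.55 and 11.36 in Ctr neurospheres, with no overlap. The difference of 0.37 (0.16 to 0.59; 1.29-fold) did not pass (adjusted p = 0.0679). In C2 neurospheres, Calr had 11.49, 11.29 and 11.50, so C4 was 0.45 above C2 (0.24 to 0.67; adjusted p = 0.0384). That call was lost when any 1 of the 6 arrays of C4 and C2 was left out (adjusted p from 0.053 to 0.121). The other 2 probe sets of Calr gave 0.31 each for C4 against Ctr, and 0.42 and 0.39 for C4 against C2 (adjusted p = 0.0519 and 0.114).

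The oxidoreductases were Pdia4 and Creld2. Pdia4 (ERp72; chr6:47796141-47813512), which forms and rearranges disulfide bonds, had 7.67, 7.95 and 7.94 in C4 neurospheres and 7.63, 7.23 and 7.63 in Ctr neurospheres. All C4 arrays were higher, the nearest by less than 0.05, and the difference of 0.35 (0.00 to 0.70) did not pass (adjusted p = 0.309). Its C2 values of 7.35, 7.63 and 7.63 were those of Ctr within the spread (difference 0.04, −0.31 to 0.39), and a second probe set of Pdia4 had the same floor value, 2.27, on every array. Creld2 (chr15:88819646-88826681), an ER protein with disulfide isomerase activity, had 8.52, 8.56 and 8.81 in C4 neurospheres and 8.42, 8.45 and 8.45 in Ctr neurospheres. Again all C4 arrays were higher, and again the difference, 0.19 (0.01 to 0.37), did not pass (adjusted p = 0.279). In C2 neurospheres Creld2 had 8.40, 8.38 and 8.34, below all Ctr arrays by a difference of only −0.07 (−0.25 to 0.11, adjusted p = 0.895).

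Manf (chr9:106888753-106891938), which encodes an ER-resident and secreted factor that protects neurons, was the only one of the 10 called higher in C4 against Ctr. It had 11.12, 11.17 and 11.07 in C4 neurospheres and 10.77, 10.85 and 10.95 in Ctr neurospheres. The difference was 0.27 ± 0.05 (SE; adjusted p = 0.0245). The arrays did not overlap, but the call was lost without Ctr replicate 1 (adjusted p = 0.054), Ctr replicate 2 (0.0892), C4 replicate 1 (0.0688) or C4 replicate 2 (0.0828). In C2 neurospheres Manf had 10.85, 10.92 and 10.88, a difference of 0.03 from Ctr (−0.09 to 0.14), and C4 was 0.24 above C2 (adjusted p = 0.0401). That call too was lost without any 1 of the 6 arrays (adjusted p from 0.0671 to 0.137).

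Herpud1 (chr8:94386429-94395371), an ER membrane protein that helps misfolded proteins to the degradation machinery and whose window holds both ERSE-II and CARE, was the only one of the 10 called lower in C4 against Ctr by its brightest probe set, while Hsp90b1 passed only on its second. It had 7.57, 7.66 and 7.57 in C4 neurospheres and 7.89, 7.996 and 8.01 in Ctr neurospheres. All C4 arrays were below all arrays of both other conditions. The difference from Ctr was −0.36 ± 0.05 (SE; 0.779-fold; adjusted p = 0.00885), and it passed without any 1 of the 6 arrays (adjusted p from 0.0143 to 0.0401) but not with a robust variance prior (adjusted p = 0.0673). In C2 neurospheres Herpud1 had 8.05, 7.95 and 8.10, which overlapped Ctr (difference 0.07, −0.05 to 0.19, adjusted p = 0.735). C4 was 0.43 below C2 (adjusted p = 0.00504), again without any 1 array (0.00843 to 0.0255). The second probe set of Herpud1 gave −0.27 for C4 against Ctr (adjusted p = 0.183), 0.18 for C2 against Ctr (adjusted p = 0.613) and −0.45 for C4 against C2 (adjusted p = 0.0372). Among the genes with more than 1 probe set, Herpud1 was the only one whose probe sets all passed in a comparison, C4 against C2.

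Xbp1 (chr11:5520641-5525993), the transcription factor whose mRNA IRE1 splices, fell in C2, while its difference in C4 did not pass. It had 9.06, 8.98 and 8.95 in C2 neurospheres and 9.31, 9.24 and 9.28 in Ctr neurospheres, with no overlap. The difference was −0.28 ± 0.05 (SE; 0.821-fold; adjusted p = 0.0451), and it did not pass when any 1 of the 6 arrays was left out (adjusted p from 0.0718 to 0.145). In C4 neurospheres Xbp1 had 9.31, 9.37 and 9.21, a difference of 0.02 from Ctr (−0.09 to 0.14) and 0.31 from C2 (adjusted p = 0.0153). The C4 against C2 call was lost without C2 replicate 2 (adjusted p = 0.0647), C2 replicate 3 (0.0558) or C4 replicate 1 (0.0526). This probe set is also marked s in its ID, and the next brightest of Xbp1 gave −0.01 in C2 (−0.23 to 0.21) and 0.23 in C4 against Ctr (adjusted p = 0.298). Neither of the remaining 2 probe sets of Xbp1 passed in any comparison, and spliced and unspliced Xbp1 mRNA were not told apart.

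**Figure D2:**
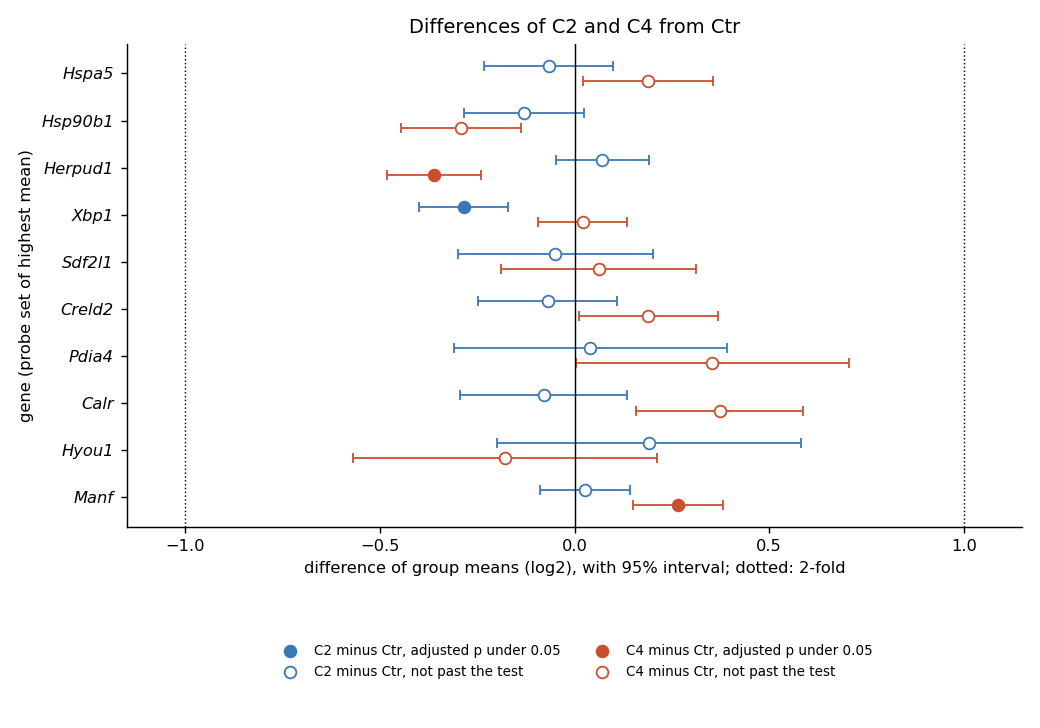
Differences of C2 (blue) and C4 (orange) from Ctr in log2 for the 10 genes, with unadjusted 95% intervals from the fit; filled points passed at an adjusted p under 0.05 and dotted lines mark 2-fold. Herpud1 and Manf are filled in C4 and Xbp1 in C2, and no interval reaches 2-fold.

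A difference that misses the threshold does not show that the conditions were alike, so the intervals set the bound. Among the 10 genes, the lowest limit of a 95% interval in C4 against Ctr was −0.57 (Hyou1) and the highest 0.70 (Pdia4). In C2 against Ctr the limits ran from −0.40 (Xbp1) to 0.58 (Hyou1), and in C4 against C2 from −0.76 (Hyou1) to 0.67 (Calr). Over all 22 probe sets, 0 intervals reached a difference of 1 in either direction in any of the 3 comparisons. These intervals are not adjusted for the number of probe sets. The SD of the 3 arrays of a condition was between 0.00 and 0.30 for the probe sets of highest mean, with a median of 0.08.

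Of 10 sensors and transducers above these genes, by the brightest probe set of each, 0 passed in C4 against Ctr by limma, with 1 at an unadjusted p under 0.05. In C4 against C2, 2 were lower (Wfs1 and Mbtps2), that is 20%, beside 7.78% of all genes. In C2 against Ctr 1 was higher, Wfs1 (0.41, adjusted p = 0.0134), that is 10%, beside 2.52% of all genes called. Wfs1 is an ER membrane protein that restrains ATF6, and it was looked up after its values were seen. Wfs1 was 0.41 lower in C4 than in C2 (adjusted p = 0.00442). Ern1 was near the floor (3.16, 3.39 and 3.42 in C4 and 3.23, 3.24 and 3.51 in Ctr neurospheres). Eif2ak3 differed by 0.02 in C4 and −0.30 in C2 (adjusted p = 1 and 0.157). Atf6 had 7.12, 7.31 and 7.04 in C2 neurospheres and 6.11, 6.46 and 6.48 in Ctr neurospheres. Its arrays did not overlap and its difference, 0.81, was larger than that of any of the 10 genes, but it did not pass (adjusted p = 0.0692). In C4 against C2, Atf6 gave −0.53 on this probe set (adjusted p = 0.147) and −0.85 and −0.17 on dimmer ones (adjusted p = 0.0258 and 0.546). The transducer Creb3 gave 0.19 in C4 against Ctr on its brightest probe set (adjusted p = 0.339). Others of similar signal gave 0.22 each (adjusted p = 0.00362 and 0.347). Mbtps2, the protease that cuts ATF6 at its second site, was 0.55 lower in C4 than in C2 (adjusted p = 0.0289; 0.101 without C2 replicate 1, 0.102 without C2 replicate 2 and 0.0808 without C4 replicate 2) and 0.45 lower in C4 than in Ctr without passing (adjusted p = 0.0529).

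Of 21 other ER chaperones and cochaperones, 2 were higher and 4 lower in C4 than in Ctr, with a median of −0.03. That is 28.6% called, beside 9.20% of all genes and 17.5% of genes with a mean of 4 or more. Serpinh1, the collagen chaperone HSP47, fell furthest: 11.69, 11.67 and 11.68 in C4 neurospheres and 12.22, 12.22 and 12.25 in Ctr neurospheres (−0.55, adjusted p = 0.000277). Fkbp14, a prolyl isomerase, fell by 0.35 (adjusted p = 0.0113; 0.0731 with a robust variance prior), and Canx, calnexin, the membrane partner of calreticulin, fell by 0.23 (adjusted p = 0.024). Calnexin and calreticulin, lectin chaperones of the same cycle, thus had opposite signs in C4, although only that of Canx passed, and the Canx call was lost without any of the 3 Ctr arrays or without C4 replicate 1 (adjusted p up to 0.0895). In C2, 0 of the 21 passed by limma, with 9 at an unadjusted p under 0.05.

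Among 15 other ER oxidoreductases, the exception was Ero1a, which passes oxidizing equivalents to protein disulfide isomerase and is known as a gene induced by low oxygen. It had 12.54, 12.45 and 12.55 in Ctr, 12.07, 12.05 and 12.07 in C2, and 11.63, 11.66 and 11.51 in C4 neurospheres. The 3 conditions did not overlap: the difference from Ctr was −0.91 in C4 (adjusted p = 0.000204) and −0.45 in C2 (adjusted p = 0.00971; 0.0663 with a robust variance prior). Erp44, which retains ERO1 in the ER, rose by 0.34 in C4 (adjusted p = 0.014; 0.0578 without Ctr replicate 2), and the other 13 did not pass in C4. So 13.3% of the 15 were called in C4, beside 9.20% of all genes.

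Of 22 genes of ER-associated degradation other than Herpud1, 2 were higher in C4 than in Ctr and 0 lower (9.09%, beside 9.20% of all genes): Ube2j2, a ubiquitin-conjugating enzyme (0.31, adjusted p = 0.0218), and Vcp, the ATPase that pulls proteins out of the membrane (0.33, adjusted p = 0.0289). The call of Ube2j2 was lost without any 1 array but C4 replicate 1 (adjusted p up to 0.0844), and that of Vcp without any 1 array but Ctr replicate 3 (adjusted p up to 0.104). Of 26 genes of ER translocation and signal peptide processing, 4 were higher and 3 lower in C4 (26.9%, beside 9.20% of all genes). Among them were Sec61b of the translocation channel (0.45, adjusted p = 0.0131; 0.0527 without Ctr replicate 1 and 0.0556 without Ctr replicate 2) and Stt3a, a catalytic subunit of oligosaccharyltransferase (−0.45, adjusted p = 0.00372). Over the 94 genes of these 5 lists, 9 were higher and 8 lower in C4 than in Ctr (18.1%), 3 were higher and 1 lower in C2 (4.26%), and the medians were 0.01 and 0.03. Among all genes with a mean of 4 or more, 17.5% were called in C4 and 4.79% in C2. Among 15 cytosolic heat shock proteins and their partners, 2 were higher and 2 lower in C4 (26.7%, beside 9.20% of all genes). The small heat shock protein Cryab, also an astrocyte gene, rose by 1.47 (adjusted p = 0.000399).

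**Figure D3:**
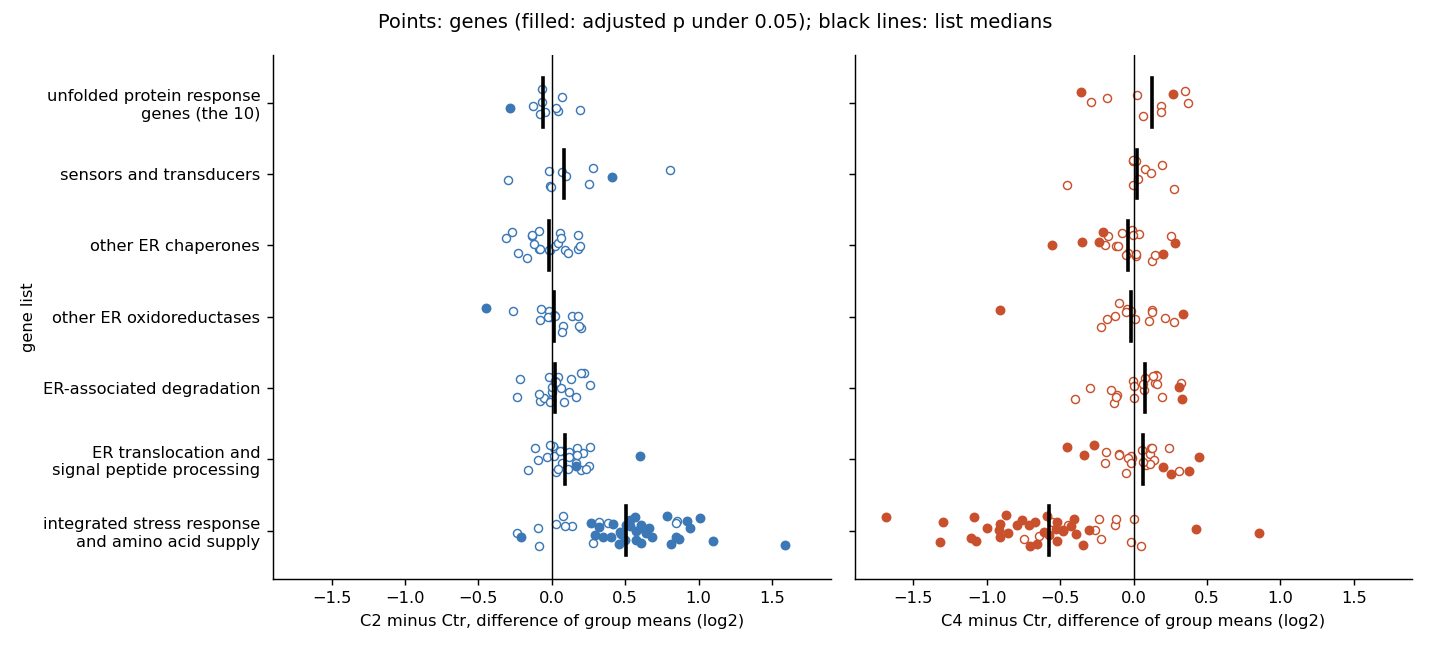
Differences from Ctr in log2 of every gene of the 10, of the 5 other ER lists and of the integrated stress response and amino acid supply, for C2 (left) and C4 (right); filled points passed at an adjusted p under 0.05 and black lines are list medians. The ER lists are centered near 0 in both panels, while the lowest row lies to the right of 0 in C2 (median 0.50) and to the left in C4 (median −0.58).

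The list of 45 genes of the integrated stress response and amino acid supply was chosen with earlier results of these data known. Its shares beside those of all genes are therefore a description and not an independent test. Of the 45 genes, 31 were lower and 2 higher in C4 than in Ctr (73.3% called, against 9.20% of all genes), with a median of −0.58. In C2, 32 were higher and 1 lower than in Ctr (73.3%, against 2.52%), with a median of 0.50. In C4 against C2, 39 were lower and 2 higher (91.1%, against 7.78%), with a median of −0.97. The median over all genes was 0 in each comparison. A difference of at least 1 was reached by 7, 3 and 20 of the 45 genes in C4 against Ctr, C2 against Ctr and C4 against C2, and by 0 of the 10 ER genes in each. The number called in C2 was 9 with a robust variance prior, with which 0.159% of all genes were called. It was between 19 and 25 without single arrays, the lowest without Ctr replicate 2.

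Array by array, the arrays of a condition were alike. The median shift of the 45 genes from their Ctr mean was between −0.60 and −0.57 on the C4 arrays and between 0.47 and 0.55 on the C2 arrays, against −0.02 to 0.02 on the Ctr arrays. For the 10 ER genes the median shift was between 0.05 and 0.18 on the C4 arrays and between −0.06 and −0.01 on the C2 arrays, against −0.01 to 0.03 on the Ctr arrays. On each C4 array, 2 to 4 of the 45 genes were above all Ctr arrays and 38 to 41 below. Of the 10 ER genes, 5 to 7 were above all Ctr arrays on each C4 array and 2 to 4 below. Over all genes, 23.2% to 27.7% were above and 14.7% to 17.8% below on a C4 array.

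Atf4, the transcription factor of this response, had 11.25, 11.24 and 11.38 in C2 neurospheres and 10.90, 10.75 and 10.86 in Ctr neurospheres. On this probe set, its brightest, it rose by 0.46 (adjusted p = 0.0243). That call was lost without any 1 of the 6 arrays (adjusted p from 0.0559 to 0.0748). In C4 neurospheres Atf4 had 10.71, 10.59 and 10.55, below all Ctr arrays, and the difference of −0.22 did not pass (adjusted p = 0.117). Ddit3, the transcription factor CHOP, which the ER and amino acid responses share, had 9.85, 9.92 and 9.94 in C2 neurospheres and 9.07, 8.96 and 9.10 in Ctr neurospheres (0.86, adjusted p = 0.00156). In C4 neurospheres Ddit3 had 8.73, 8.80 and 8.70, 0.30 below Ctr (adjusted p = 0.0112). Both genes have more than 1 probe set, and with the mean over them the C2 difference of Atf4 was 0.04 (adjusted p = 0.876) and the C4 difference of Ddit3 −0.08 (adjusted p = 0.568). The mean of Atf4 includes a probe set near the floor, with condition means of 2.98 to 3.23.

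The named genes of amino acid supply followed the same order, high in C2 and low in C4, with Ctr between and no overlap. Asns, asparagine synthetase, had 10.57, 10.66 and 10.56 in C4, against 11.48, 11.41 and 11.48 in Ctr neurospheres (−0.86, adjusted p = 0.000143). In C2 neurospheres it had 12.06, 12.03 and 12.10 (0.61, adjusted p = 0.00218). Slc3a2, the heavy chain of amino acid transporters, differed from Ctr by −0.66 in C4 and by 0.61 in C2, and Cebpg, a C/EBP partner of ATF4, by −0.71 and by 0.68. Eprs, a tRNA synthetase, differed by −0.71 and by 0.27. Among genes chosen after their values were seen, the differences of C4 and C2 from Ctr were −1.32 and 0.94 for Chac1, which degrades glutathione, and −1.11 and 1.01 for Nupr1, a stress-induced chromatin protein. All of these passed the test, and Eprs alone lost its C2 call without single arrays (adjusted p = 0.0558 without Ctr replicate 2 and 0.0564 without C2 replicate 3), Chac1 and Nupr1 not having been refitted.

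**Figure D4:**
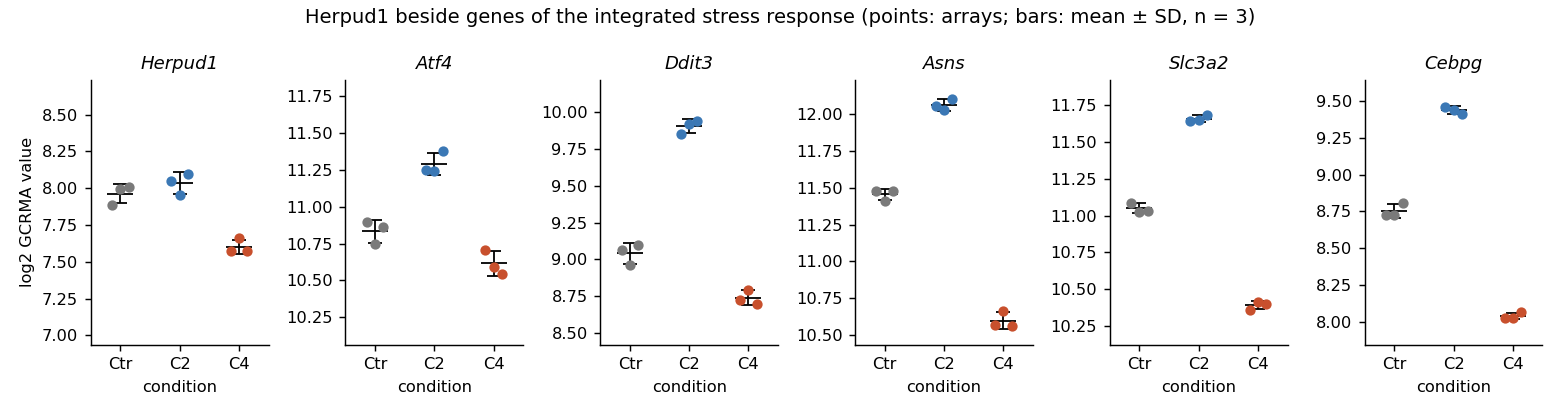
Log2 GCRMA values of Herpud1 and of Atf4, Ddit3, Asns, Slc3a2 and Cebpg on each array, by condition; points are arrays, horizontal bars the mean and whiskers the SD of 3 arrays, and every panel spans the same 1.8 log2 units. Herpud1 is lowest in C4, as are the other 5 genes, but its C2 arrays overlap its Ctr arrays where those of the other 5 lie above.

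Herpud1 fell in C4 as these genes did, and its difference in C2, 0.07, did not pass. Its difference of −0.36 in C4 lay between those of Ddit3 (−0.30) and Slc3a2 (−0.66). On its second probe set the C2 difference was 0.18, with an interval of −0.03 to 0.39. In the list of amino acid supply, the 13 genes with CARE had median differences from Ctr of −0.59 in C4 and 0.57 in C2. The 24 genes without CARE had medians of −0.52 and 0.43. Hsp90b1, whose window holds ERSE and no CARE, differed by −0.29 (not past the test) and −0.39 in C4 on its probe sets. Whether the CARE of Herpud1 has a part in its fall was not tested.

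By the probe set of highest mean of each, the 10 genes did not move as 1 block across the arrays. The second bright probe set of Hspa5 had the opposite sign in C4 against Ctr (−0.14, beside 0.19), and correlations with it were not computed. Over the 9 arrays, the Pearson correlation with Hspa5 was 0.83 for Creld2, 0.76 for Pdia4, 0.74 for Manf and 0.73 for Calr. It was 0.58 for Xbp1, 0.42 for Sdf2l1 and −0.29 for Hyou1, and it was −0.59 for Hsp90b1 and −0.72 for Herpud1. Among 4731 genes with a range of at least 0.5, the 5 most like Hspa5 were Dcc, Map7d2, Tspan15, Nckap5 and Mnt (0.96, 0.96, 0.96, 0.95 and 0.95), none of them an ER chaperone. Of these 4731, 280 genes had a higher correlation with Hspa5 than Creld2 had. Creld2, Manf, Hsp90b1, Xbp1 and Sdf2l1 had ranges under 0.5 and were not candidates, so nothing is read from their absence. The arrays of a condition share that condition, so these values describe 3 groups more than 9 separate points.

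The arrays held the markers of neural stem and progenitor cells, with 9 of 10 genes above the floor and Prom1 near it. Of these 10 genes, 4 were higher and 1 lower in C4 than in Ctr, beside 9.20% of all genes called, and 0 passed in C2 by limma, with 5 at an unadjusted p under 0.05. Their summed linear signal was 65140 to 69450 on C4 arrays and 65190 to 70060 on Ctr arrays. Markers of other cell types moved with C4 as well. Of 7 astrocyte genes, 3 were higher and 0 lower in C4 than in Ctr (42.9%, beside 9.20% of all genes). Their summed linear signal was 12010 to 12400 on C4 arrays and 9500 to 10770 on Ctr arrays, with Gfap near the floor. Of 6 oligodendrocyte lineage genes, 3 were higher in C4 (50%, beside the same 9.20%), with sums of 429 to 574 on C4 arrays and 229 to 236 on Ctr arrays. Cd68 was the only one of 8 microglia genes above the floor, and the sum of the 8 was 75.3 to 81.4 on C4 arrays and 245 to 296 on Ctr arrays. Of 9 neuroblast and neuron genes, 3 were above the floor, and 1 was higher and 1 lower in C4 (22.2%, beside 9.20% of all genes). In C2 against Ctr, 1 gene each of the astrocyte, oligodendrocyte lineage and neuroblast lists was lower (14.3%, 16.7% and 11.1%, beside 0.846% of all genes). Of 5 genes of olfactory ensheathing cells, 1 was above the floor, Fabp7, which the stem and progenitor list holds too, and it was higher in C4, with sums of 27940 to 29410 on C4 arrays and 22430 to 23080 on Ctr arrays. Of 8 pericyte and fibroblast genes 1 was above the floor and 0 were called in C4 or C2, and none of 6 endothelial genes was above the floor. The part of these cell types in the differences of the 10 ER genes was not tested, and a change in cell makeup cannot be told apart from a change per cell in whole neurospheres.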

How the data were processed

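RNA of aOBSC neurospheres was hybridised to 9 Affymetrix mouse genome arrays, 3 per condition. The values are log2 expression values that the authors made with GCRMA (background correction by probe sequence, quantile normalisation, summary per probe set) and deposited; its version is not given in the sources used here. The quantile step makes the arrays alike in overall distribution, so a shift of all genes cannot be seen. On each array 34.8% to 35.8% of probe sets stood at its lowest value, the floor. Arrays give no count of depth, and their number sets the precision. Of 45101 probe sets, 64 controls were left out. In the platform annotation, 34945 probe sets carry 1 symbol, 932 several and 9160 none.

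A linear model with a mean for each condition was fitted to all 9 arrays in limma (3.58.1, R 4.3.3), and eBayes used the intensity trend; degrees of freedom were 6 residual and 0.574 prior. Two-sided p-values were adjusted by Benjamini-Hochberg over 45037 probe sets, with calls under 0.05. For counts of genes, the brightest probe set stands for the gene. "Near the floor" means under 4. The script was tested on simulated data. Promoters are those of RefSeq (GRCm38.p6).

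The 10 genes and the other lists were chosen with earlier results of these data known. Named genes are the 10, up to 4 genes of each other list with the smallest p in C4 against Ctr (if C4 or Ctr averaged 4 or more), Ern1, Eif2ak3, Atf6, Atf4 and Ddit3, and the 5 genes most like Hspa5; Wfs1, Chac1 and Nupr1 were named after their values were seen. Alternatives were no intensity trend, a robust prior, only the arrays compared, a replicate block, centring on the array median, a filter on dim probe sets, other choices of a gene's probe set, the study's threshold of 1, and leaving out each array.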

Additional observations from a re-analysis of the deposited data

How the results depend on the processing

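The number of the 10 ER genes called was small and moved with the settings, while none reached a difference of 1 (0, 0 and 0 in C4 against Ctr, C2 against Ctr and C4 against C2, beside 7, 3 and 20 amino acid stress genes). Against 2, 1 and 4 called, a robust prior gave 0, 0 and 1, only the arrays compared 1, 0 and 2, the replicate block 1, 0 and 2, centring 4, 1 and 5, the filter on dim probe sets 4, 1 and 6, and the mean over probe sets 3, 2 and 5. Over all genes, the main fit called 9.20%, 2.52% and 7.78%. The robust prior called 4.59%, 0.159% and 3.99%, only the arrays compared 5.35%, 1.26% and 4.75%, and the replicate block 6.53%, 0.819% and 5.48%. Centring called 11.7%, 3.63% and 10.1%, and the mean over probe sets 10.5%, 3.33% and 9.63%. The filter called 28.3%, 11.4% and 24.1% of the genes it kept. Without probe sets marked x, s or a the counts were 2, 0 and 2, without those marked x or s (chosen after seeing the data) 2, 0 and 3, and without the trend 2, 0 and 4. The shares of all genes were 7.39%, 1.62% and 6.36%, then 8.62%, 2.12% and 7.38%, and then 8.72%, 2.13% and 7.28%. Leaving out single arrays gave 1 to 3, 0 to 0 and 1 to 3. Beside these, 5.97% to 8.22%, 1.03% to 1.62% and 4.92% to 6.74% of all genes were called. The amino acid stress genes called in C2, 33, became 9 with the robust prior and 19 with the replicate block, and 32 to 35, 19 to 25 and 38 to 39 in the 3 comparisons without single arrays. The cause of these moves was not tested. Herpud1 kept its C4 call in all but the robust fit (adjusted p = 0.0673). The C2 call of Ero1a was lost with the robust prior (0.0663) and the replicate block (0.0648). Centring moved the median of all genes by at most 0.05.

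The deviations of same-numbered arrays had correlations from −0.04 to 0.13, and those of arrays with other numbers from −0.12 to 0.09. The highest, 0.126 for replicate 1 of C4 and Ctr, stood beside −0.068 and −0.067. With 3 arrays a condition, these values cannot decide whether the numbers pair the arrays. Signs turned for small differences or with another probe set. C4 against Ctr: mean over probe sets, Hspa5 −0.0086, Xbp1 −0.015, Mbtps1 −0.047 and Sec11c 0.0104; centring, Xbp1 −0.0283, Mbtps1 −0.019 and Eif2ak3 −0.0297; without x, s or a, Xbp1 −0.276, Sec11c 0.359 and Cryab 0; without x, s or a and without x or s alike, Fkbp9 0.0188 and Syvn1 0.0357. C2 against Ctr: mean over probe sets, Mbtps1 0.0089, Sec11c 0.203, Cryab 0.0381, Dnaja1 −0.0575 and Ern1 −0.107; centring, Manf −0.0028; without x, s or a, Sec11c 0.440 and Cryab 0; without x, s or a and without x or s alike, Hyou1 −0.0411 and Syvn1 0.0649. C4 against C2: mean over probe sets, Mbtps1 −0.0559; without x, s or a, Xbp1 −0.004 and Cryab 0; without x, s or a and without x or s alike, Canx 0.0045 and Fkbp9 0.0281. Without single arrays the ranges that crossed 0 were −0.0166 to 0.0641 for Xbp1, −0.0642 to 0.133 for Sdf2l1, −0.003 to 0.0466 for Mbtps1, −0.0524 to 0.0878 for Ern1 and −0.0386 to 0.084 for Eif2ak3 (C4 against Ctr); −0.0933 to 0.134 for Pdia4, −0.0149 to 0.0731 for Manf, −0.0479 to 0.0471 for Vcp and −0.0564 to 0.0797 for Cryab (C2 against Ctr); and −0.015 to 0.182 for Sdf2l1 and −0.122 to 0.0104 for Ern1 (C4 against C2).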
